A study of Mus musculus with 40 samples.

Results

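The fibroblast growth factor *Fgf18* was followed together with the ligands *Fgf1*, *Fgf2*, *Fgf7*, *Fgf9* and *Fgf10* and the receptors *Fgfr1*, *Fgfr2*, *Fgfr3* and *Fgfr4*. These 10 genes of the 54307 in the table were listed by name, and each symbol matched 1 identifier. *Fgf18* was chosen by its own normalized counts, which were higher in choroids of mice fed PLX5622 (PLX), so its diet difference in choroid is given as a description without a test. The other 9 genes were listed by family, and the question was whether they followed *Fgf18*. Choroid and retina came from 20 mice on a C57BL/6J background, and 4 groups of 5 mice were formed, named control – PLX, Tgfbr2ΔEC – PLX, control + PLX and Tgfbr2ΔEC + PLX. All mice carried 2 floxed alleles of *Tgfbr2*, received tamoxifen eye drops at 6 to 7 weeks of age and were treated with 6 laser spots per eye 3 days before the tissue was taken. Tgfbr2ΔEC mice also carried 1 copy of a tamoxifen-inducible Cre recombinase driven by the *Cdh5* promoter, which is active in endothelial cells, and controls were littermates without it. PLX, an inhibitor of the CSF1 receptor that depletes mononuclear phagocytes (MP), was fed from the first tamoxifen application, and the other mice received control food. Only the central choroid with the lesions was used, both sexes were included, and each library came from 1 tissue of 1 mouse.

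Fibroblast growth factors are mostly secreted proteins that bind receptor tyrosine kinases together with heparan sulfate on the cell surface. The activated receptor phosphorylates the adaptor FRS2 and signals mainly through the RAS and MAP kinase cascade, and targets of that cascade, such as the Sprouty proteins, dampen the signal again. FGF18 belongs to a subfamily with FGF8 and FGF17 and is best known from cartilage, bone and lung development. FGF1 and FGF2 lack a classical secretion signal, and FGF2 is a long-known growth factor for vessels and for injured retina. FGF7 and FGF10 are made by mesenchymal cells and act on an epithelial splice form of FGFR2.

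The values were normalized counts, treated here as reads per gene divided by a library's size factor. They summed to between 24718469 and 25956180 in choroids and between 22256892 and 24507335 in retinas. A single read was estimated at 0.905 to 1.195 normalized counts in choroids and 0.745 to 1.13 in retinas, which puts a floor of 3 reads at 2.72 to 3.59 for choroids and 2.24 to 3.39 for retinas. All 10 genes were above this floor in every library. Genes were tested with limma on log2(normalized count + 1), and an adjusted p of at most 0.05 over all genes was called. This scale understates differences of low genes, and fold changes are given on it. *Csf1r*, which encodes the target of PLX, was lower by 1.03 on the log2 scale in choroids with PLX (adjusted p = 1.29e-09). *Tgfbr2*, the deleted gene, differed between genotypes by -0.05 in choroids without PLX and by 0.02 with PLX (adjusted p = 0.924 and 1.0, limma). Its loss from endothelial cells was therefore not detectable in these gene-level counts of whole choroid. The paper reports successful deletion by PCR and qPCR of choroidal tissue. The melanocyte score, a mean of log2(normalized count + 1) over 5 markers, was 13.58 to 13.78 over the groups of choroids and 3.92 to 4.80 over those of retinas. The photoreceptor score averaged 16.09 to 16.24 in the groups of retinas. Photoreceptor RNA was also present in all choroids and is described with the results it touches.

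*Fgf18* (ENSMUSG00000057967, GRCm39 chromosome 11, 33067014 to 33097828, minus strand) was higher in the choroid of mice fed PLX in both genotypes. The 5 control – PLX choroids held 117, 108, 118, 97.4 and 78.7 normalized counts, and the 5 control + PLX choroids held 139, 189, 162, 212 and 168. In Tgfbr2ΔEC – PLX choroids the values were 98.5, 94.7, 109.6, 105 and 101, and in Tgfbr2ΔEC + PLX choroids they were 191, 213, 230.2, 194 and 250.2. Every choroid with PLX was above every choroid without it, so the diets did not overlap in either genotype. The group means were 104 ± 16.5 and 174 ± 27.7 normalized counts in controls and 102 ± 5.72 and 216 ± 24.9 in Tgfbr2ΔEC mice (SD, n = 5 each). The log2 difference with PLX was 0.74 in controls (1.67-fold), 1.07 in Tgfbr2ΔEC mice (2.1-fold) and 0.91 over both genotypes (1.87-fold, standard error 0.1). Leaving out any single mouse kept the difference over both genotypes between 0.86 and 0.94.

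**Figure D1:**
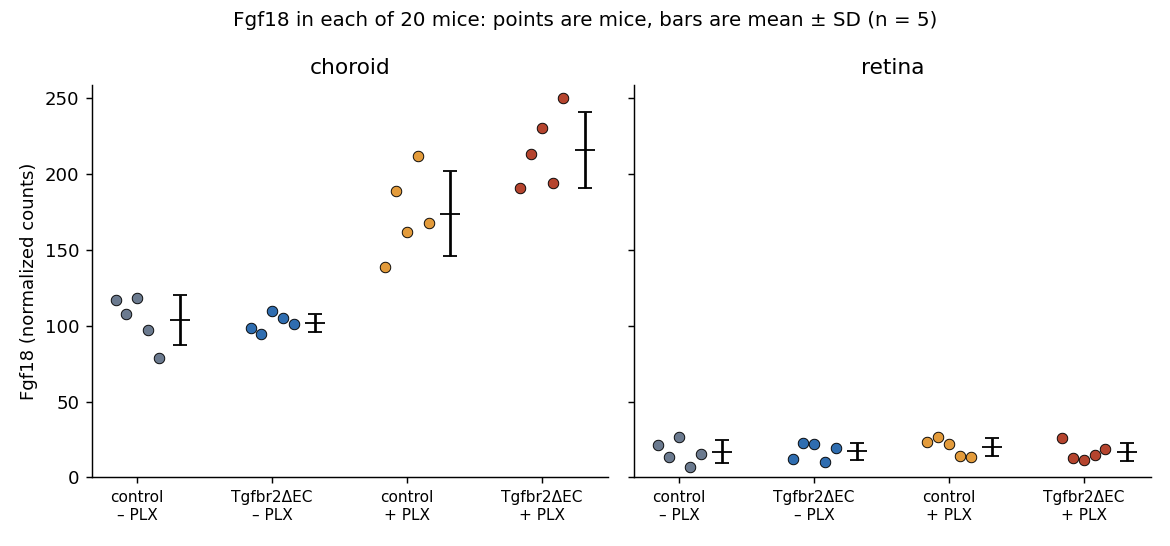
Normalized counts of Fgf18 in choroid (left) and retina (right) of each mouse by genotype and diet, with the mean ± SD of 5 mice beside the points. Choroids with PLX lie between 139 and 250.2 and those without PLX between 78.7 and 118, while all retinas lie between 7.21 and 26.8.

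The genotype made no called difference to *Fgf18*. Without PLX, Tgfbr2ΔEC and control choroids differed by -0.02 on the log2 scale (standard error 0.15, limma adjusted p = 0.993). With PLX, the Tgfbr2ΔEC group was higher by 0.32 (standard error 0.15, limma adjusted p = 1.0; exact permutation test, p = 0.0317), and the ranges of the groups overlapped between 191 and 212 normalized counts. The diet difference was larger in Tgfbr2ΔEC than in control choroids by 0.33 (standard error 0.21), which did not pass the threshold (limma adjusted p = 0.906). The exact permutation test (p = 0.479) shuffled diets within genotype, which assumes no diet difference at all, so it cannot decide on this interaction. Of the 23619 genes, 1552 had an unadjusted p under 0.05 for an interaction in either direction, and 0 were called (0.0%). The order of the 4 choroid groups was therefore Tgfbr2ΔEC + PLX, control + PLX, control – PLX and Tgfbr2ΔEC – PLX, with overlap between the first pair and between the last pair.

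In retina, *Fgf18* was low and did not follow the diet. The retinas without PLX held 21.6, 13.5, 26.8, 7.21 and 15.7 normalized counts in controls and 12.1, 22.4, 22, 10 and 19.4 in Tgfbr2ΔEC mice. With PLX the values were 23.4, 26.7, 22.1, 14.3 and 13.3 in controls and 25.9, 12.8, 11.5, 14.5 and 18.7 in Tgfbr2ΔEC mice. All 4 groups overlapped, and the log2 difference with PLX was 0.13 (standard error 0.25, limma adjusted p = 1.0). In the same retinas *Csf1r* was lower with PLX by 3.29 on the log2 scale (limma adjusted p = 1.68e-08). The score of 16 MP markers was lower by 5.33 (exact permutation test, p = 3.15e-05). Whether the diet difference of *Fgf18* differed between choroid and retina was not tested.

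Levels of different genes were compared as normalized counts per kb of annotated exon. In choroid, *Fgfr1* had the highest level of the 10 genes (578 ± 72.8 per kb, SD, n = 20 mice), followed by *Fgf1* (354 ± 59.7), *Fgfr2* (344 ± 40), *Fgf2* (235 ± 49.2) and *Fgfr3* (143 ± 40.9). *Fgf18* stood sixth at 67.4 ± 24.0 per kb, close to *Fgf7* at 55.8 ± 10.6. *Fgfr4* (18.5 ± 15.6), *Fgf10* (7.34 ± 3.17) and *Fgf9* (5.48 ± 3.77) were lowest. The neighbours *Fgf1* and *Fgfr2*, *Fgf18* and *Fgf7*, and *Fgf10* and *Fgf9* were closer to each other than their spread. Per kb of the longest annotated transcript the levels of *Fgfr1*, *Fgfr2*, *Fgfr3* and *Fgf1* were 1202, 691, 259 and 671, and *Fgfr2* then stood before *Fgf1* and *Fgfr3* before *Fgf2*. With PLX, *Fgf18* reached 88.2 ± 15.0 per kb and without PLX 46.5 ± 5.29 (SD, n = 10 mice each), so that it lay above the mean of *Fgf7* in the first case (59.4 ± 9.66) and below it in the second (52.3 ± 10.7). In retina the order began with *Fgf2* (368 ± 182), *Fgf1* (176 ± 47.2) and *Fgf9* (130.4 ± 24.1), and *Fgf18* was at 8.01 ± 2.69 per kb.

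**Figure D2:**
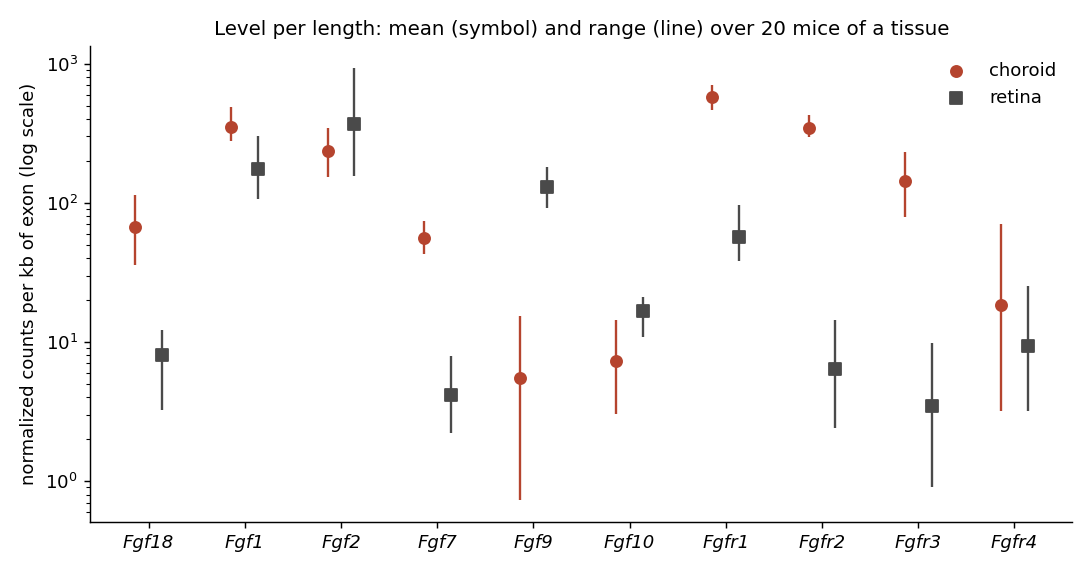
Normalized counts per kb of exon on a log axis for the 10 genes, with the mean (symbol) and the range (line) over the 20 mice of a tissue. The receptors Fgfr1, Fgfr2 and Fgfr3 and the ligands Fgf18 and Fgf7 lie higher in choroid, and Fgf9 and Fgf10 lie higher in retina.

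Of the 9 other genes, 3 rose with PLX in choroid over both genotypes, namely the receptors *Fgfr1* and *Fgfr2* and the ligand *Fgf2*, and 0 fell. Each moved much less than *Fgf18*. Among all 23619 genes tested, 7.13% were called in this comparison, and 2.07% were called higher with PLX. The log2 differences of the 9 genes had a median of 0.19 and ranged down to -0.50, against a median of 0.00 over all genes, and 7 of the 9 were above 0. Within control choroids 0 of the 9 were called (lowest adjusted p = 0.125, 3.75% of all genes called), although 3 of the 9, *Fgf2*, *Fgfr1* and *Fgfr2*, had an unadjusted p under 0.05, as did 13.8% of all genes. Within Tgfbr2ΔEC choroids only *Fgfr1* was called, where 4.06% of all genes were called and 0.559% called higher. There 4 of the 9, *Fgfr1*, *Fgfr2*, *Fgf2* and *Fgf7*, had an unadjusted p under 0.05, beside 15.4% of all genes. The number of genes called higher in that comparison, 132, was 49 without mouse 6, between 59 and 79 without mouse 8, 9, 18, 19 or 20 and 32 with a photoreceptor score as a covariate. Over both genotypes 489 genes were called higher, and this number was 772 without mouse 12 and 296 with that covariate. These comparisons within a genotype rest on 5 mice against 5 and on the same mice as the comparison over both genotypes.

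**Figure D3:**
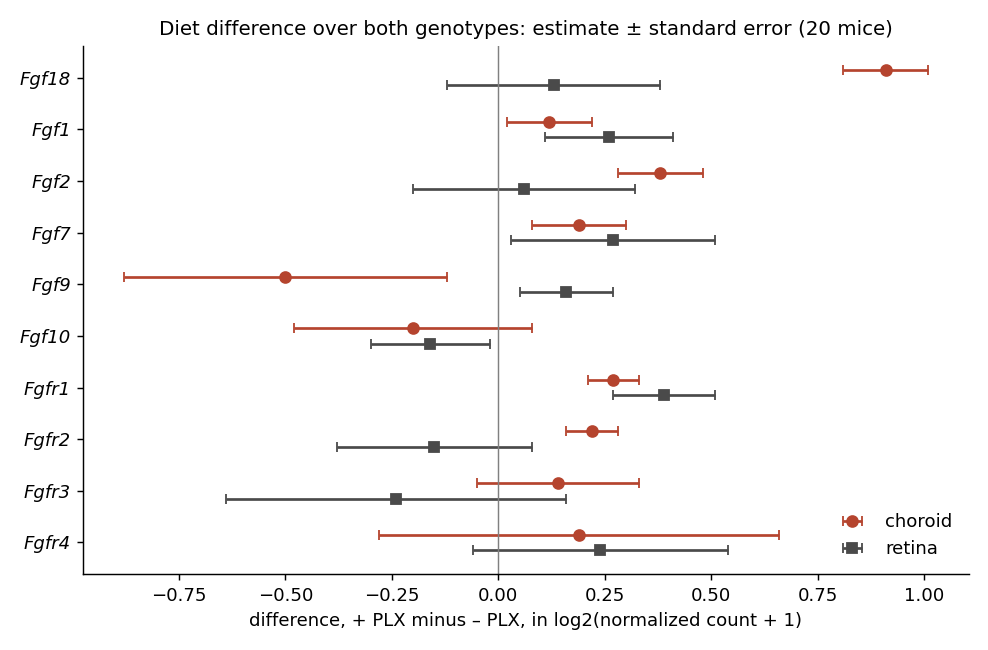
Difference between mice with and without PLX over both genotypes in log2(normalized count + 1), with its standard error, for the 10 genes in choroid (circles) and retina (squares). In choroid Fgf18 stands at 0.91, Fgf2, Fgfr1 and Fgfr2 stand between 0.22 and 0.38, and Fgf9 at -0.50 has a wide error.

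*Fgfr1* (ENSMUSG00000031565, chromosome 8, 26003670 to 26066824, plus strand) encodes a receptor of mesenchymal and many other cells. Its control choroids held 6336, 7379, 7319.5, 7089.8 and 5924 normalized counts without PLX and 7936, 7573, 8921, 7848 and 6824 with PLX. Its Tgfbr2ΔEC choroids held 6073, 6976, 6596, 6442 and 6720.2 without PLX and 7837, 7725, 8400, 8967 and 8869 with PLX. The diets did not overlap in Tgfbr2ΔEC mice, and in controls only mouse 15, at 6824 with PLX, fell among the mice without PLX. Over both genotypes *Fgfr1* rose by 0.27 on the log2 scale (1.21-fold, standard error 0.06, limma adjusted p = 0.00326). The rise was 0.35 in Tgfbr2ΔEC choroids (adjusted p = 0.0143, limma), while the difference in controls was 0.20 (adjusted p = 0.242). The call in Tgfbr2ΔEC choroids was lost with a photoreceptor score as a covariate (0.22, adjusted p = 0.325, limma) and just lost without mouse 6 (0.32, adjusted p = 0.0502).

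*Fgfr2* (ENSMUSG00000030849, chromosome 7, 129763471 to 132725079, minus strand) encodes the receptor whose epithelial form binds FGF7 and FGF10. Its values without PLX were 4264, 3709, 3458, 3408 and 3661 normalized counts in controls and 3573, 3728, 3363, 3364 and 3419 in Tgfbr2ΔEC choroids. With PLX they were 4879, 3678, 4361, 4267 and 3816 in controls and 4517, 3999, 3882, 4022 and 4636 in Tgfbr2ΔEC choroids. The diets overlapped in controls through mouse 1 without PLX and mouse 12 with PLX, and they did not overlap in Tgfbr2ΔEC mice. Over both genotypes *Fgfr2* rose by 0.22 (1.17-fold, standard error 0.06, limma adjusted p = 0.0208), and with a photoreceptor score as a covariate this call was lost (0.18, adjusted p = 0.111). Within a genotype the difference was 0.18 in controls and 0.27 in Tgfbr2ΔEC mice (adjusted p = 0.338 and 0.0780, limma). In the fit of the 10 Tgfbr2ΔEC choroids alone, *Fgfr2* was called (0.27, adjusted p = 0.0485).

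The other receptors were not called. *Fgfr3* (ENSMUSG00000054252, chromosome 5, 33879018 to 33894412), known as a brake on growing cartilage and as a receptor for FGF18, held 704 to 1613 normalized counts in choroids without PLX and 709.7 to 2057 in choroids with it. The diets overlapped almost completely, and the log2 difference was 0.14 (standard error 0.19, limma adjusted p = 0.765). *Fgfr4* (ENSMUSG00000005320, chromosome 13, 55300352 to 55316572) lay between 22.4 and 122 in choroids without PLX and between 14.1 and 315 in those with it. Its difference of 0.19 (standard error 0.47, limma adjusted p = 0.880) depended on single mice. It was -0.11 without mouse 14 at 315 (adjusted p = 0.930), 0.03 without mouse 6 (adjusted p = 0.988) and 0.44 without mouse 12 (adjusted p = 0.618, limma).

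*Fgf2* (ENSMUSG00000037225, chromosome 3, 37402473 to 37464257, plus strand) was the ligand that rose beside *Fgf18*. Without PLX its choroids held 1324, 1278, 1369, 1473 and 1052 normalized counts in controls and 1674, 1357, 1650.3, 1359.7 and 1338 in Tgfbr2ΔEC mice. With PLX they held 1927, 1144, 1830.1, 1956 and 1997 in controls and 1894, 1566, 2366, 1861 and 1713 in Tgfbr2ΔEC mice. In controls mouse 12 alone, at 1144 with PLX, lay within the range without PLX, and in Tgfbr2ΔEC mice the overlap was mouse 17 at 1566. Over both genotypes *Fgf2* rose by 0.38 (1.31-fold, standard error 0.10, limma adjusted p = 0.0206). The difference was 0.43 in controls and 0.34 in Tgfbr2ΔEC mice (adjusted p = 0.125 and 0.228, limma). Without mouse 12 the difference in controls was 0.58 and was called (adjusted p = 0.00335).

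The other ligands were not called with PLX in choroid. *Fgf1* (ENSMUSG00000036585, chromosome 18, 38971717 to 39077186), the widely acting relative of *Fgf2*, differed by 0.12 (standard error 0.10, limma adjusted p = 0.611), with ranges of 2393 to 4101 normalized counts without PLX and 2348 to 3732 with PLX. *Fgf10* (ENSMUSG00000021732, chromosome 13, 118806327 to 118928672), a mesenchymal ligand, differed by -0.20 (standard error 0.28, adjusted p = 0.770), between 16.9 and 65.3 without PLX and between 14.9 and 71.3 with PLX. In both genes the diets overlapped over nearly their whole ranges.

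*Fgf7* (ENSMUSG00000027208, chromosome 2, 125876578 to 125934218), the keratinocyte growth factor of mesenchymal cells, differed by 0.19 over both genotypes (standard error 0.11, limma adjusted p = 0.372). The Tgfbr2ΔEC choroids held 191, 189.8, 197, 197 and 309 normalized counts without PLX and 276, 281, 275, 273 and 329 with PLX, and mouse 10 at 309 was the only one without PLX to reach the values with PLX. Their log2 difference was 0.43 (adjusted p = 0.154, limma), and without mouse 10 it was 0.56 and called (adjusted p = 0.0308). Control choroids held 233, 206, 319, 237 and 219.8 without PLX and 198, 299, 253, 235 and 194 with PLX, a difference of -0.05 (adjusted p = 0.947, limma). The diet differences of the genotypes differed by 0.47, which was not called (standard error 0.22, limma adjusted p = 0.742).

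*Fgf9* (ENSMUSG00000021974, chromosome 14, 58308004 to 58350316), a ligand of neural and mesenchymal tissues, was low in choroid and varied widely between mice. It was between 18.8 and 28 normalized counts in control – PLX choroids and between 16.2 and 34.5 in Tgfbr2ΔEC + PLX choroids. Mouse 15 of the control + PLX group stood at 88.4, and mice 6, 9 and 10 of the Tgfbr2ΔEC – PLX group stood at 54.8, 64.7 and 71.2. The log2 difference with PLX was -0.50 (standard error 0.38, limma adjusted p = 0.537), -0.76 without mouse 15 (adjusted p = 0.176) and 0.03 with a photoreceptor score as a covariate (adjusted p = 0.983).

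**Figure D4:**
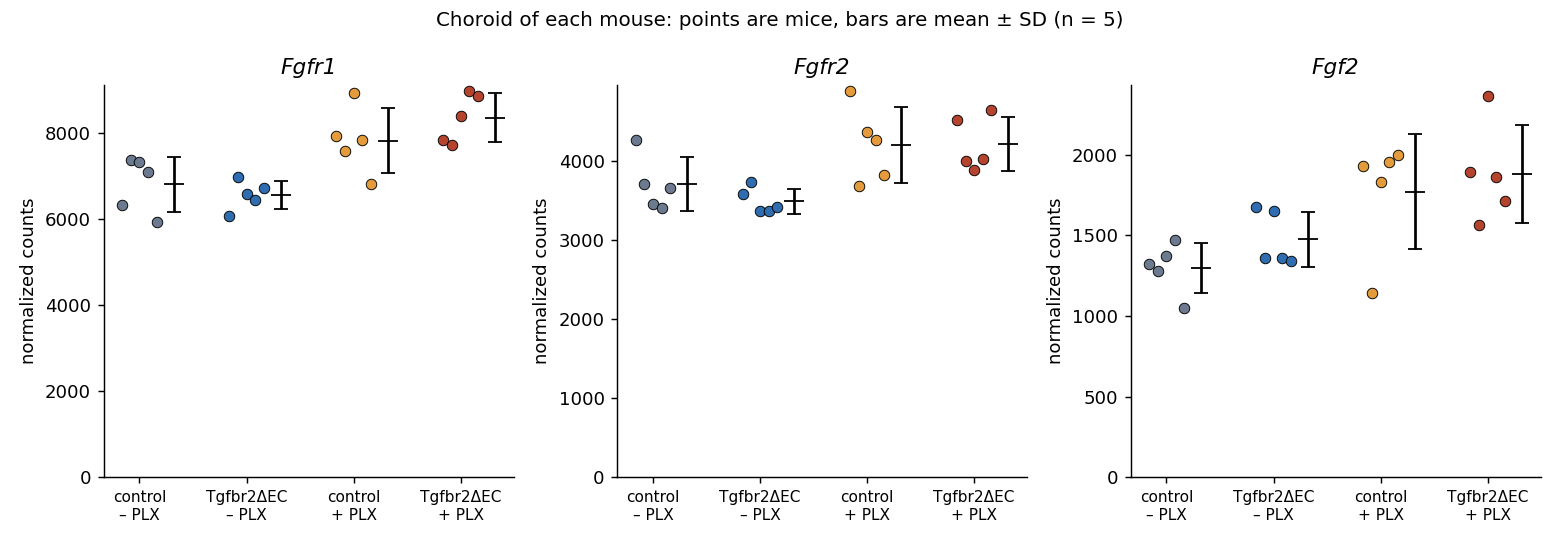
Normalized counts of Fgfr1, Fgfr2 and Fgf2 in the choroid of each mouse by genotype and diet, with the mean ± SD of 5 mice beside the points and axes that start at 0. Group means of Fgfr1 are 6809.9 and 6561 without PLX and 7821 and 8359.5 with PLX. The diets overlap in controls for each gene and in Tgfbr2ΔEC mice for Fgf2 only.

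In bulk tissue, fewer cells of a type and less RNA per cell cannot be told apart, and several cell types moved with the diet in choroid. Scores of marker lists were compared by exact permutation tests over all relabellings of diet within genotype. The MP score fell by 2.26 (exact permutation p = 3.15e-05, the smallest this test allows). Its group means were 11.37 and 11.28 without PLX and 9.12 and 9.0 with PLX, and 15 of 16 markers were called lower. The endothelial score was higher with PLX by 0.26 (exact p = 6.3e-05, 6 of 10 markers called higher), with choroids at 11.36 to 11.67 on control food and at 11.53 to 11.91 on PLX. Scores of pericytes and smooth muscle (0.25, exact p = 0.00145, 2 of 10 called), Schwann cells (0.22, exact p = 0.00583, 1 of 5 called) and fibroblasts (0.17, exact p = 0.0101, 2 of 8 called) were also higher. The group means of fibroblasts were 15.02 and 15.02 without PLX and 15.13 and 15.26 with PLX, and those of pericytes and smooth muscle were 11.28 and 11.39 without PLX and 11.58 and 11.59 with PLX. These 4 shifts lay between 0.17 and 0.26, beside rises of 0.22 to 0.38 for *Fgfr1*, *Fgfr2* and *Fgf2* and a difference of 0.91 for *Fgf18*, and their part in those values was not tested. Markers of cartilage and tendon, where *Fgf18* is known to be active, had a score difference of 0.17 (exact p = 0.188, 3 of 8 called higher), with group ranges of 8.52 to 9.27 and 8.81 to 9.23 without PLX and 8.61 to 9.65 and 9.02 to 9.51 with PLX. No marker of these 6 lists was listed at 0 in any choroid. The differences of Müller glia (-0.11, p = 0.504, 1 of 5 markers called lower), retinal pigment epithelium (0.15, p = 0.141), melanocytes (0.14, p = 0.0816) and skeletal muscle (0.01, p = 0.980) did not pass 0.05 in the exact test, and the low surface epithelium score was lower with PLX (-1.74, exact p = 0.0174, 0 of 5 markers called).

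The photoreceptor score of choroids was 9.42 ± 1.4 in control – PLX, 11.99 ± 0.72 in Tgfbr2ΔEC – PLX, 9.49 ± 2.17 in control + PLX and 9.64 ± 0.7 in Tgfbr2ΔEC + PLX mice (SD, n = 5 each). It was therefore higher in the Tgfbr2ΔEC – PLX group than in its controls by 2.56 (exact permutation test, p = 0.00794) and lower with PLX in Tgfbr2ΔEC mice by 2.35 (p = 0.00794, exact). In both comparisons 0 of the 10 photoreceptor markers were called, and the diet difference over both genotypes was -1.14 (exact permutation test, p = 0.106, 0 of 10 called). Mouse 15, at 12.85, had the highest score of the control choroids. Across the 20 choroids *Fgf9* was higher where this score was higher (Pearson r = 0.75, Spearman rho = 0.65), and *Fgfr1* (-0.61, -0.63), *Fgfr2* (-0.55, -0.59) and *Fgf7* (-0.46, -0.48) were lower. Without the 2 choroids farthest from the median score, Pearson r was 0.63, -0.58, -0.36 and -0.59. For *Fgf18* r was -0.34 and rho -0.45 (r = -0.33 without those 2 choroids), and for *Fgf2* r was -0.05 and rho -0.04. These correlations are descriptions over 20 libraries that share the diet and genotype groups, and what underlies them was not tested. With the score as a covariate, *Fgfr1* and *Fgf2* were still called over both genotypes (0.21 and 0.40, adjusted p = 0.0253 and 0.0394, limma), whereas *Fgfr2* and the rise of *Fgfr1* within Tgfbr2ΔEC choroids were not, as given above. Without mouse 15 all 3 calls over both genotypes held (*Fgfr1* 0.30, *Fgfr2* 0.24, *Fgf2* 0.36).

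**Figure D5:**
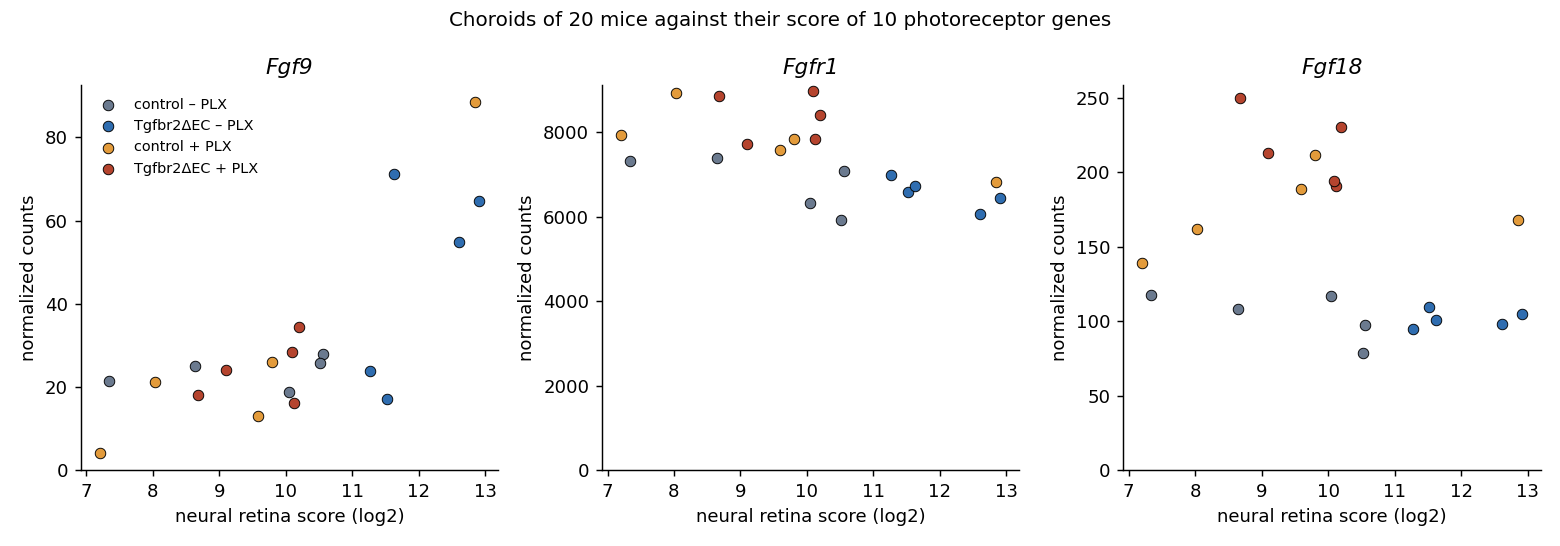
Normalized counts of Fgf9, Fgfr1 and Fgf18 in 20 choroids against the mean log2(normalized count + 1) of 10 photoreceptor genes, coloured by group. Fgf9 is highest in choroids with high scores, including mouse 15 of the control + PLX group at 88.4. Fgf18 separates by diet, but in Tgfbr2ΔEC mice the scores also differ by diet without overlap (11.27 to 12.91 without PLX, 8.68 to 10.2 with PLX).

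Loss of endothelial *Tgfbr2* called 0 of the 10 genes in choroid. Without PLX the lowest adjusted p of the 10 was 0.775 (*Fgf9*, log2 difference 0.75, limma), 0 of 10 had an unadjusted p under 0.05, and 1 gene of the whole table was called (0.00423%). With PLX the adjusted p of all 10 was 1.0, *Fgf18* alone had an unadjusted p under 0.05, and again 0.00423% of genes were called. The number of genes called without PLX was unstable to 1 library, with 411 called when mouse 15 was left out. A fit restricted to the 10 mice on control food called 303 genes, and 0 of the 10 FGF genes were among them.

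In retina, 0 of the 10 genes were called with PLX, in a comparison that called 1.09% of 23243 genes, with 4 genes higher and 250 lower. *Fgfr1* came closest. It held 670.5, 744, 636, 624 and 619 normalized counts in controls and 650.4, 569.8, 484, 608 and 571 in Tgfbr2ΔEC mice without PLX. With PLX it held 637, 1231, 647, 748 and 1114 in controls and 595, 871, 618, 896 and 941 in Tgfbr2ΔEC mice. The log2 difference of 0.39 (1.31-fold, standard error 0.12) had an unadjusted limma p of 0.00481 and an adjusted p of 0.261 (exact permutation test, p = 0.00759), and 4 of the 10 retinas with PLX lay within the range of those without. *Fgf2*, the most abundant of the 10 genes per kb in retina, spread over 1070.1 to 4714 normalized counts on control food and 1440.3 to 6427 on PLX, with a difference of 0.06 (standard error 0.26, limma adjusted p = 1.0). Between genotypes, 0 of the 10 genes and 0.0% of all genes were called in retina. *Fgfr2* had the lowest p of these genes, with a difference of 0.49 (limma adjusted p = 0.928; exact permutation test, p = 0.0489), and 878 genes of the table had an unadjusted p under 0.05.

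The tissues differed in all 10 genes, in a comparison that called 82.0% of 24317 genes and 40.8% as higher in choroid, so the sizes of the differences are described. *Fgfr2* was higher in choroid by 5.82 on the log2 scale (56.6-fold, standard error 0.12), *Fgfr3* by 5.54 (46.6-fold, 0.23) and *Fgfr1* by 3.38 (10.4-fold, 0.07). The mesenchymal ligand *Fgf7* was higher by 3.74 (13.4-fold), *Fgf18* by 2.99 (7.95-fold), *Fgf1* by 1.03 (2.04-fold) and *Fgfr4* by 0.78 (1.72-fold, adjusted p = 0.0132, limma). *Fgf9* was lower in choroid by 4.77 (27.3-fold), *Fgf10* by 1.25 (2.38-fold) and *Fgf2* by 0.55 (1.46-fold, adjusted p = 0.00109, limma). *Fgf9* in choroid was higher where the photoreceptor score was higher, as given above, and the part of retinal RNA in its choroid values was not tested. *Fgf10* was at 53.6 to 103 normalized counts in retinas and at 14.9 to 71.3 in choroids, so the tissues overlapped, as they did for *Fgf1*, *Fgf2* and *Fgfr4*. Scaling every library to the same total moved the median difference of all genes to -0.12, and the 10 differences kept their direction and call.

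The rest of the pathway was described by 4 lists of genes. For the diet over both genotypes, 7.13% of all genes passed the threshold, and the unadjusted p of 19.3% was under 0.05. Of 16 further FGF family genes, 15 could be tested in choroid, and 0 were called (2 at an unadjusted p under 0.05, median log2 difference -0.03). This list includes intracellular factors, such as *Fgf12*, that do not act through the receptors. *Fgf8* and *Fgf17*, the nearest relatives of *Fgf18*, were low. *Fgf8* was listed at 0 in 4 and 3 of 5 control and Tgfbr2ΔEC choroids without PLX and in 2 and 4 of 5 with PLX, and it did not exceed 7.37 normalized counts. *Fgf17* was above 0 in all choroids, at 1.85 to 17 normalized counts and 4.75 ± 2.35 per kb (SD, n = 20), near the level of *Fgf9*. Their log2 differences with PLX were 0.22 and -0.43 (adjusted p = 0.848 and 0.514, limma). Of 19 co-receptors and binding proteins, among them syndecans, glypicans and the sulfatases that trim heparan sulfate, 0 were called (5 at an unadjusted p under 0.05, median 0.12). Of 10 intracellular adaptors, *Gab1*, a docking protein for PI3 kinase, rose by 0.22 (adjusted p = 0.0424) and *Cbl*, a ubiquitin ligase that removes activated receptors, fell by 0.41 (adjusted p = 0.0451, limma). Neither call was stable to leaving out single mice, with 13 and 14 of 20 such fits losing it, and neither held with the photoreceptor score as a covariate (0.19 and -0.44, adjusted p = 0.161 and 0.0750, limma).

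Of 15 feedback inhibitors and response genes tested, 3 rose with PLX in choroid over both genotypes and 0 fell, where 7.13% of all genes were called and 2.07% called higher. The list's median log2 difference was 0.06, against 0.00 over all genes. The Sprouty gene *Spry4* rose by 0.34 (1.27-fold, standard error 0.08, limma adjusted p = 0.0107). Its control choroids held 1107, 999.8, 772, 789.9 and 981 normalized counts without PLX and 1076, 932, 1201, 1237 and 1027 with PLX, which overlapped. Its Tgfbr2ΔEC choroids held 789.5, 895, 885, 706 and 698 without PLX and 966, 1017, 1122, 1022 and 1248 with PLX, which did not overlap. The rise within Tgfbr2ΔEC mice was 0.44 (adjusted p = 0.0339, limma). *Spry1*, another Sprouty inhibitor, rose by 0.35 (adjusted p = 0.0277), and *Il17rd*, the membrane inhibitor SEF, rose by 0.27 (adjusted p = 0.0410, limma). The call of *Il17rd* was lost in 15 of the 20 fits without 1 mouse and that of *Spry1* in 4, while *Spry4* was called in all 20 over both genotypes and lost its call within Tgfbr2ΔEC mice in 7 of 20. With the photoreceptor score as a covariate, *Spry4* was still called over both genotypes (0.32, adjusted p = 0.0426, limma). The differences of *Spry1* (0.32) and *Il17rd* (0.25) changed little but were no longer called (adjusted p = 0.0996 and 0.123, limma), and neither was *Spry4* within Tgfbr2ΔEC mice (0.40, adjusted p = 0.236). The other 12 genes, which include *Dusp6*, *Etv4* and *Etv5*, were not called.

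Within Tgfbr2ΔEC choroids, 2 of the 15 further FGF family genes tested were called with PLX, in a comparison that called 4.06% of all genes and 0.559% as higher. *Fgf12*, an intracellular FGF homologous factor of neurons that does not act through the receptors, fell by 2.45 (adjusted p = 0.0415, limma). It held 116, 109, 44.6, 205 and 141 normalized counts without PLX and 42.5, 4.73, 41.8, 12.9 and 22.8 with PLX. In controls it was between 18.3 and 39.8 without PLX, and with PLX it was at 239 in mouse 15 and between 8.60 and 35.8 in the others, a difference of 0.39 (adjusted p = 0.866, limma). The high values were in the Tgfbr2ΔEC – PLX group and in mouse 15, and the genotype difference without PLX was 2.01 (adjusted p = 0.257, limma). It was 50.4-fold lower in choroid than in retina, and with the photoreceptor score as a covariate its difference was -1.12 (adjusted p = 0.607). *Fgf16* rose by 1.75 (adjusted p = 0.0398, limma) at the edge of detection, from 0.973 to 7.66 normalized counts without PLX, with 3 of these 5 mice under the floor of 3 reads, to 5.38 to 15.1 with PLX. Controls held 2.63 to 15.2 without PLX and 4.59 to 10.3 with PLX, a difference of -0.21 (adjusted p = 0.903, limma). In the fit of these 10 Tgfbr2ΔEC choroids alone, *Fgf16* was not called (adjusted p = 0.0608) and *Fgf12* was (adjusted p = 0.0205, limma). With the photoreceptor score as a covariate *Fgf16* was at 1.73 and no longer called (adjusted p = 0.202, limma). Both calls were lost when all genes above 0 were tested (adjusted p = 0.0616 and 0.0765, limma), and without 1 mouse they were lost in 11 of 20 fits for *Fgf12* and in 8 of 20 for *Fgf16*.

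By genotype in either tissue, by diet in retina and in the interaction, 0 genes of the 4 lists were called. Few genes of the whole table were called there. The shares were 0.00423% by genotype in choroid on either diet and 1.09% by diet in retina. They were 0.0% by genotype in retina and in the interaction. Between tissues, 14 of 19 co-receptors and binding proteins were called higher in choroid and 4 lower, beside 11 and 3 of 15 feedback and response genes. Of all genes 82.0% were called in this comparison and 40.8% were higher in choroid. Of 14 further FGF family genes tested in both tissues, 3 were higher in choroid and 9 were lower.

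The genes most like *Fgf18* over the 20 choroids were found among 15280 protein-coding genes with a mean of at least 10 by Pearson r of log2(normalized count + 1). They were *Plscr4* (r = 0.87), *Emp2* (0.867), *Igfbp5* (0.86), *Pdzrn3* (0.851) and *Chpf* (0.84). These values share the diet groups that chose *Fgf18*. Around the 4 group means, r was 0.456, 0.477, 0.543, 0.433 and 0.5. Their own log2 differences with PLX were 0.33, 0.26, 0.45, 0.42 and 0.30, each below that of *Fgf18*. Among the 9 other FGF genes *Fgfr1* was closest (r = 0.798, rank 25), followed by *Fgf2* (0.637), *Fgfr2* (0.612) and *Fgf7* (0.533). Around the group means, r with *Fgf18* was 0.217 for *Fgfr1*, 0.0786 for *Fgf2*, -0.152 for *Fgfr2* and 0.399 for *Fgf7*.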

How the data were processed

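Poly-A RNA of choroid and retina from 20 mice was sequenced as stranded single-read libraries. The authors used FastQC 0.11.5, Salmon 1.10.1 against GRCm39 with GENCODE vM29, tximport for import and DESeq2 1.36.0 for normalization. They deposited normalized counts (a signal, not whole numbers) in 1 table of 54307 genes, of which 17202 were at 0 in every library. The study's methods describe separate analyses of the tissues. In the deposited values, however, the median ratio to the geometric mean of all 40 libraries was 1.008 in every library, whereas within a tissue it varied from 0.983 to 1.029 (choroid) and 0.992 to 1.036 (retina), so the table was scaled over both tissues together. All 40 columns were matched to samples by their labels. Symbols, positions and exon lengths came from GENCODE vM39 of GRCm39 (53700 genes matched, 607 did not). *Fgfr2* spans far more sequence there than its main transcripts, so its level per kb is uncertain. Depth, inferred from the spacing of low values, came to 21628874 to 28174821 reads for choroids, and for retinas to 20847747 to 30421581. In choroids 63.3% to 79.2% and in retinas 49.7% to 76.3% of the low values were within 0.1 of a multiple of 1 read. No count test was therefore run, and the floor of 3 reads covers counting error only.

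Differences were tested two-sided with limma 3.58.1 (R 4.3.3, variance trend) on log2(normalized count + 1). Genes needed a mean of 1 or more, and p-values were adjusted over all genes by Benjamini-Hochberg. The 4 groups of a tissue entered 1 fit without covariates, and the tissue comparison used all 40 libraries. The authors' covariates (sex and a neuronal percentage) are not in the labels and were not used here. The procedure was tested on simulated data. Exact two-sided permutation tests of genes and of marker scores were computed with numpy 2.4.6, and their smallest p for 5 mice against 5 is 0.00794. Spearman correlations with the photoreceptor score used scipy 1.17.1. Replicates are separate mice, and both tissues of a mouse carry 1 number in the labels. Deviations from the group means correlated between the tissues of a mouse by -0.16 to 0.29 (median 0.13), and the mouse was a block in an alternative fit.

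The 10 genes, the 4 pathway lists and the 12 marker lists (99 genes, all matched) were chosen with earlier results of these data known. Named were all 10 genes, the pathway genes past the threshold in a diet comparison (at most 3 per list), *Fgf8* and *Fgf17*, the 5 genes most like *Fgf18*, *Tgfbr2* and *Csf1r*. *Dusp6*, *Etv4* and *Etv5* were named after their values were seen. *Spry3* was not matched and *Fgf15* was too low in choroid to be tested. Alternatives were pseudocounts of 0.5 and 5, a mean of 10 or more or no filter, 2 other scalings, a robust variance, a sex score, a photoreceptor score, fits of 10 mice, leaving out each mouse, the mouse as a block and another transcript length.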

Additional observations from a re-analysis of the deposited data

Results flagged for a closer look

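Of 80 sets of 5 mice (10 genes in 8 groups), 13 held 1 mouse whose gap to the next, as a share of the whole range, was above 0.71, where chance gives about 4. In choroid these were *Fgf1* in mouse 7 of Tgfbr2ΔEC – PLX (4101 normalized counts, next 2885, share 0.712) and *Fgf2* in mouse 12 of control + PLX, which was low (1144, next 1830.1, share 0.804). *Fgf7* was high in mouse 3 of control – PLX (319, next 237, share 0.729), mouse 10 of Tgfbr2ΔEC – PLX (309, next 197, share 0.943) and mouse 20 of Tgfbr2ΔEC + PLX (329, next 281, share 0.857). *Fgf9* was high in mouse 15 of control + PLX (88.4, next 25.9, share 0.742) and *Fgf10* in mouse 18 of Tgfbr2ΔEC + PLX (71.3, next 26.7, share 0.79).

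In retina, *Fgf2* was high in mouse 13 of control + PLX (6427, next 2488, share 0.79), *Fgf7* in mouse 14 of the same group (35.2, next 17.1, share 0.758) and *Fgfr3* in mouse 17 of Tgfbr2ΔEC + PLX (51.0, next 18.4, share 0.802). Mouse 9 of Tgfbr2ΔEC – PLX was high for both *Fgfr2* (162, next 80.7, share 0.849) and *Fgfr4* (58.1, next 30.6, share 0.787), and mouse 1 of control – PLX was high for *Fgfr4* (54.5, next 35.1, share 0.768). No mouse stood apart for *Fgf18* in any group.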

How the results depend on the processing

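The 3 calls over both genotypes in choroid (*Fgfr1*, *Fgf2*, *Fgfr2*) held in all 20 fits without 1 mouse. With the photoreceptor score as a covariate 2 of them held and *Fgfr2* did not (0.18, adjusted p = 0.111, limma). *Fgf18* kept its direction in every setting, but leaving out a mouse could not have reversed it because its diets did not overlap. The number of the 9 genes called ranged from 0 to 1 in controls (1 without mouse 12) and from 0 to 2 in Tgfbr2ΔEC choroids without single mice (0 without mouse 6, 2 without mouse 10). In Tgfbr2ΔEC choroids it was 0 with the photoreceptor score as a covariate and 2 in the fit of 10 mice. That covariate turned *Fgf9* to 0.03, and leaving out mouse 14 turned *Fgfr4* to -0.11 (range without single mice -0.11 to 0.44). Over all genes, the diet comparison called 572 genes in the fit of 10 control mice and 533 in Tgfbr2ΔEC choroids with the photoreceptor score, and 154 in retina with a mean of at least 10. The genotype comparison without PLX called 0 genes with a mean of at least 10, 303 in the fit of 10 mice and 1 to 411 without single mice, 411 without mouse 15. With PLX it called 0 genes with a pseudocount of 5, a mean of at least 10, the sex score, the photoreceptor score or 10 mice, and 0 to 1 without single mice. The cause was not tested. With the mouse as a replicate block, 19855 genes differed between tissues (19930 without), and no call on the 10 genes changed. The low ligands *Fgf8*, *Fgf16* and *Fgf17* fell under the floor of 3 reads in some choroids, and the part of depth in their results was not tested.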
